A study of Mus musculus with 2 samples.

Results

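Tight junctions were followed through 9 genes of the mouse corneal epithelium, taken from the deposited count matrix by their symbols: the claudins Cldn1, Cldn3, Cldn4, Cldn7 and Cldn23, the membrane proteins occludin (Ocln) and junctional adhesion molecule A (F11r), and the scaffolds ZO-1 (Tjp1) and ZO-3 (Tjp3). The matrix holds 17492 genes, and all 9 were found in it. The 2 single-cell RNA libraries came from male C57BL/6J mice aged 20 weeks, 1 from control and 1 from diabetic animals, each a pool of 4 corneas from 2 mice. The diabetic mice had received 160 mg/kg of streptozotocin once, a toxin that kills the insulin-producing beta cells of the pancreas, and were counted as diabetic if they stayed hyperglycemic, with glucose over 250 mg/dL, for all 12 weeks studied. The control mice had received the citrate buffer alone.

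A tight junction is a belt of membrane strands that seals the gap between neighbouring epithelial cells near their outer surface. Claudins form the strands and set which ions and small molecules pass, occludin and JAM-A sit beside them, and the ZO proteins bind their tails inside the cell and tie the belt to actin. In the cornea the seal lies in the outermost, superficial cells, which face the tear film, while the basal and wing cells beneath them are joined mainly by desmosomes and adherens junctions.

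The control library held 9605 cells and the diabetic library 8203, with medians of 16487 and 17677 unique molecular identifiers (UMIs) per cell. A UMI marks 1 captured molecule near its 3′ end, so levels are given as UMIs per 1000000 UMIs of the summed cells (CPM), with no division by gene length. The authors assigned each cell 1 of 8 labels (LSC, Basal, TAC1, TAC2, Wing, Squam, Conj, Immune), whose full names the sources used here do not give. The 5 limbal markers summed to 7476 and 6408 CPM in LSC cells and the 5 conjunctival keratins to 14735 and 19439 CPM in Conj cells, in the order control then diabetic, which is kept throughout. All 8 basal markers were present in both libraries, and immune markers were at 19.4 and 10.6 CPM over all cells. LSC cells made up 2.10% and 4.04% of the libraries and Wing cells 30.2% and 24.1%. The libraries shared 18 cell barcodes. Since each group is 1 library, no replicate exists and nothing was tested. A call, higher or lower with diabetes, is one of size alone and needs a CPM ratio of at least 1.5 either way, at least 50 UMIs over both libraries and exact 95% Poisson intervals that do not overlap. All intervals cover counting error only.

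Below, 3 claudins are shown with the 250 bases before their RefSeq start on GRCm38.p6, read in the direction of the gene. Cldn1 was taken for its calls in the diabetic library, and Cldn3 and Cldn4 because they are neighbours with alike patterns but unlike ratios. Cldn23, which was called lower in some labels, has no entry among the upstream sequences. Capitals mark matches, on either strand, to 4 motifs: AACNGGTT (grainyhead factors), CACCTG (the E-box bound by Snail and Zeb repressors), GGGCGG (GC box) and TGANTCA (AP-1). The windows are chr16:26371840-26372089 on the minus strand for Cldn1, chr5:134985964-134986213 on the plus strand for Cldn3 and chr5:134946935-134947184 on the minus strand for Cldn4.
Cldn1: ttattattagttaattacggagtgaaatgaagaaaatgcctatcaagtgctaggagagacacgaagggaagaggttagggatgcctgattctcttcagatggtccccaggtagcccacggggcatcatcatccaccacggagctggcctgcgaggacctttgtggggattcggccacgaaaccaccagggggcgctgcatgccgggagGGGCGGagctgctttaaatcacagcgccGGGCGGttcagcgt
Cldn3: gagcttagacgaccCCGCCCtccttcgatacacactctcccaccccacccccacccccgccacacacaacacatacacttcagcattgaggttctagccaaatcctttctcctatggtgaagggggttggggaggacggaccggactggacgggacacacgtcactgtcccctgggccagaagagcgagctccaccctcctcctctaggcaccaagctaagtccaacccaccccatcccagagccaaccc
Cldn4: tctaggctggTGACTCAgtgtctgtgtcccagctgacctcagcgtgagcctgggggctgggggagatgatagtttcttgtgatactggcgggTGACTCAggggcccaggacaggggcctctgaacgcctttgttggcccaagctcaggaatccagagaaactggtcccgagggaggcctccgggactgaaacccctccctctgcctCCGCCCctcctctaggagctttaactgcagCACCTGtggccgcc
The Cldn1 window held 2 GC boxes, and the Cldn3 window held 1 and no other match. The Cldn4 window held 2 AP-1 matches, 1 GC box and 1 E-box 14 bases before the start. The 8 members in the table (not Cldn23) have 11 windows between them, since some have 2 starts. Of the 11 windows, 8 held a GC box, 6 an E-box, 2 an AP-1 match and 0 a grainyhead match. Over all 32851 windows of this length the shares were 32.7%, 17.2%, 6.75% and 1.79%. These are matches of letters only.

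In all cells, 1 of the 9 members was called higher and 0 were called lower. Cldn1 was the one called, at 4.34 and 9.91 CPM, while Cldn3 went from 84.0 to 57.2 CPM and fell just short of the call. Among all 13846 genes measured, 5.98% were called higher and 2.8% lower. With median-of-ratios scaling the 828 higher and 387 lower calls of the whole table became 649 and 486, and Cldn3 was then called lower. The ratio of diabetic to control level was below 1 for the other 8 members, as it was for 38.6% of 13841 genes. Cell makeup enters these ratios, since Wing cells gave 40.1% and 31.0% of the UMIs and Basal cells 16.1% and 19.7%. Over the alternatives run, the log2 ratio lay between -0.35 and -0.09 for Cldn4 and between -0.29 and -0.07 for Tjp3. The ratio of Tjp1, 0.983, was above 1 on thinned cells, with equal weight for every cell and with the same label weights in both libraries. The members' median log2 ratio was -0.25, and the median over all measured genes was 0.07. Each member's levels in every label are drawn in the panels of level by label.

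**Figure D1:**
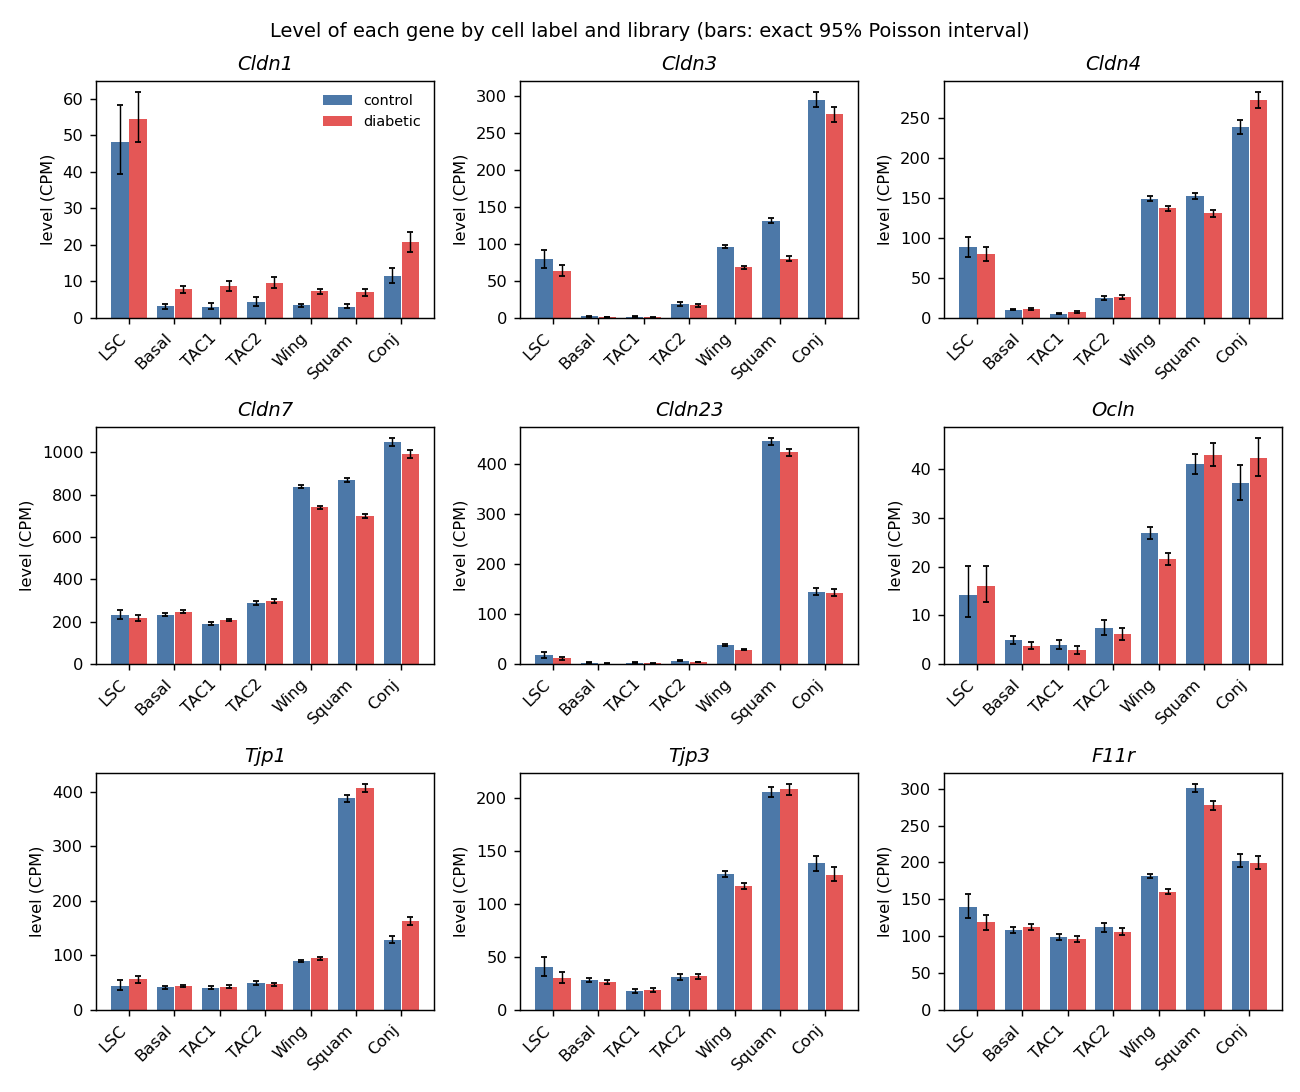
Level of each of the 9 genes (CPM, vertical axis, a separate scale in each panel) in the 7 epithelial labels, with the control library in blue and the diabetic library in red; bars are exact 95% Poisson intervals. Squam or Conj cells stand highest for every gene except Cldn1, which peaks in LSC cells at 48.2 and 54.5 CPM.

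Across the 7 epithelial labels there are 63 pairs of a member and a label, all 63 of them measured. Of these, 6 were called higher and 5 lower. All 6 higher pairs were Cldn1, and the lower pairs were Cldn3 in Basal and Squam cells and Cldn23 in Basal, TAC1 and TAC2 cells. The other 6 members were called in no label. Basal cells thus had 1 of 9 members called higher and 2 lower, where 2.63% of all measured genes were called higher and 2.38% lower. In TAC1 and TAC2 cells 1 member was called higher and 1 lower, beside 1.7% and 1.52% of all genes in TAC1 and 2.21% and 1.35% in TAC2 cells. Wing and Conj cells had 1 member called higher and 0 lower, beside 3.93% and 2.59% of genes in Wing and 2.52% and 1.95% in Conj cells. LSC cells had 0 members called, beside 2.63% and 2.61% of genes, and Squam cells had 1 each way, beside 1.79% higher and 7.75% lower. Between 2 libraries of 1 pool each, sampling of mice and pools cannot be told apart from diabetes. The labels come from clustering of these cells on their genes, so a difference between labels is a description as well.

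**Figure D2:**
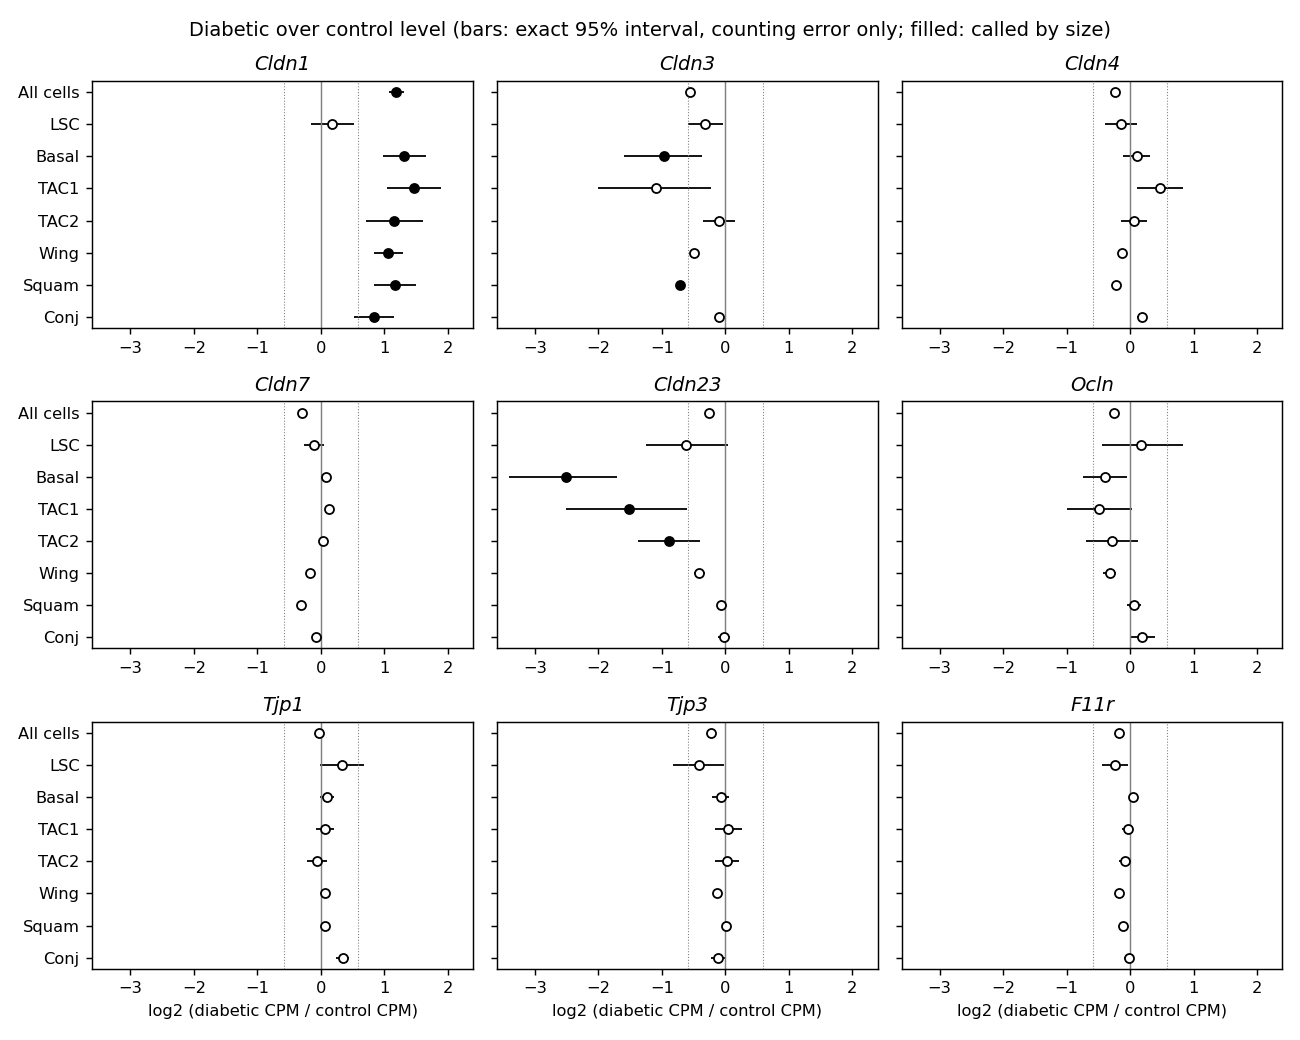
Log2 ratio of diabetic to control CPM (horizontal axis) for each gene over all cells and in the 7 labels; bars are exact 95% intervals of the ratio for counting error, dotted lines mark a fold of 1.5 and filled points are called. Cldn1 is right of the dotted line everywhere but in LSC cells, and filled points on the left appear only for Cldn3 and Cldn23.

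Cldn1, on chromosome 16 at 26356642 to 26371841 with 4 exons, encodes the claudin that seals the epidermis against water loss. It was the scarcest of the 5 claudins over all cells and differed most between the libraries. In Basal cells it stood at 3.16 and 7.85 CPM, a ratio of 2.48 (95% interval 1.96 to 3.15) from 100 and 265 UMIs. The ratio was 2.77 (2.07 to 3.74) in TAC1 cells, at 3.15 and 8.71 CPM, and 2.22 (1.64 to 3.06) in TAC2 cells, at 4.35 and 9.67 CPM. In the upper layers the levels were alike: Wing cells had 3.48 and 7.26 CPM (ratio 2.09) and Squam cells 3.15 and 7.06 CPM (ratio 2.24). Conj cells had 11.6 and 20.7 CPM, a ratio of 1.78 (1.43 to 2.23). Cldn1 was thus called higher in 6 of 7 labels, in those with basal and in those with superficial markers alike.

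LSC cells were the exception for Cldn1, and they were also where it was most abundant. Their levels were 48.2 CPM (39.4 to 58.3) and 54.5 CPM (48.0 to 61.7), a ratio of 1.13 (0.897 to 1.43) that was not called. The control level in LSC cells was 15.2-fold that in Basal cells, and the diabetic level 6.95-fold. In each library LSC and then Conj cells led, while TAC2, TAC1, Basal, Wing and Squam cells followed at levels that overlapped from one to the next. LSC cells, 2.10% of the control cells, gave 12.3% of its Cldn1 UMIs. Over all cells without those labelled LSC or Conj, a comparison chosen after seeing the data, the log2 ratio of Cldn1 was 1.21, against 1.19 with them.

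The share of cells with a Cldn1 UMI showed the same contrast. At a fixed depth this share follows largely from the level, so it is no separate support. After each cell was thinned to 5000 UMIs, which left out 486 control and 264 diabetic cells as too shallow, the share in Basal cells was 1.69% (1.21 to 2.30) and 3.62% (2.90 to 4.47), against 3.75% and 9.57% before thinning. In LSC cells it was 21.3% (15.4 to 28.3) and 25.1% (20.2 to 30.4), against 36.6% and 45.9%. Cldn1 was therefore seen in few cells outside LSC and Conj, and in a larger share of Basal cells of the diabetic library. Of the 26 control Immune cells, 1 held a Cldn1 UMI (3.85%, 0.0973 to 19.6, unthinned), with a median of 2424 UMIs per cell against 13146 in control Basal cells. Whether Immune cells make Cldn1 themselves was not tested. So few cells put no useful limit on free RNA at a level this low. On thinned cells the call for Cldn1 held in Basal, TAC1, TAC2 and Wing cells and was lost in Squam cells (log2 ratio 0.77) and in Conj cells (log2 ratio 0.54).

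Limbal markers moved with Cldn1 in part. Their sum was 396 and 494 CPM in Basal cells, 379 and 501 in TAC1, 485 and 823 in TAC2, 54.4 and 82.1 in Wing, 66.8 and 77.6 in Squam and 212 and 384 in Conj cells. Of the 5 limbal markers, 4 were higher in diabetic Basal cells, Gpha2 at 115 and 254 CPM and Apoe the other way at 210.0 and 163 CPM. None of the 5 was at 0 in Basal cells. All 5 were higher in diabetic TAC2, Wing and Conj cells, 3 of 5 in TAC1 and 2 of 5 in Squam cells, where Gpha2 at 33.7 and 58.6 CPM carried the higher sum. The part of limbal cells or their RNA in the Cldn1 difference was not tested.

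**Figure D3:**
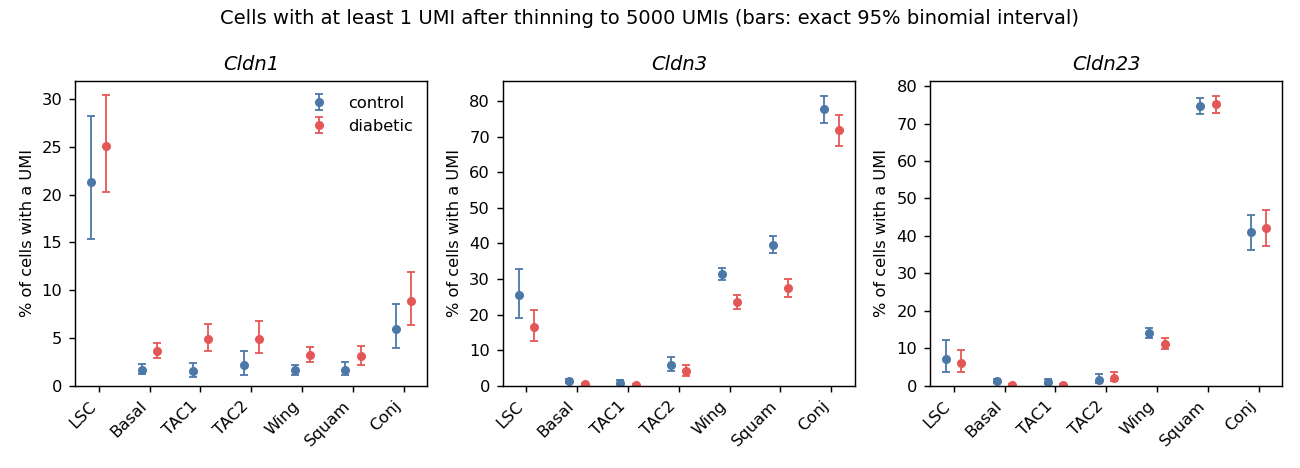
Share of cells with at least 1 UMI of Cldn1, Cldn3 or Cldn23 after thinning to 5000 UMIs (percent, vertical axis) by label, control in blue and diabetic in red; bars are exact 95% binomial intervals. For Cldn1 the diabetic share is above the control share in all 7 labels, and for Cldn3 it is below in all 7, from 39.6% to 27.4% in Squam cells.

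Cldn3 and Cldn4 are barrier-forming claudins and receptors of a clostridial enterotoxin, and lie head to head on chromosome 5. Cldn4 spans 134945119 to 134946934 on the minus strand and Cldn3 134986214 to 134987472 on the plus strand, each in 1 exon, with 39279 bases and 0 annotated genes between them. Over the 14 sums of a label and a library, their levels had the highest correlation of any pair of members (Pearson r = 0.979 on log2 of CPM plus 1). The points share libraries and depth, and the value is a description.

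Cldn3 was most abundant in Conj cells, at 294 and 275 CPM. Squam cells had 131 CPM (128 to 135) and 79.9 CPM (76.8 to 83.1), 1.64-fold lower in the diabetic library (1.56 to 1.72) and called lower. Wing cells had 96.3 and 68.3 CPM, 1.41-fold lower and not called, and LSC cells 79.4 and 63.9 CPM. The lower layers held little of it: Basal cells had 2.15 and 1.10 CPM from 68 and 37 UMIs, 1.96-fold lower (1.30 to 3.02) and called, and TAC1 cells 1.79 and 0.842 CPM from 37 and 17 UMIs, not called. TAC2 cells stood between, at 18.6 and 17.2 CPM. Wing and Squam cells, the 2 labels next below Conj in level, gave 46.0% and 31.0% of the control Cldn3 UMIs and 37.0% and 25.0% of the diabetic ones.

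Over all cells Cldn3 was 1.47-fold lower (1.43 to 1.51), with a log2 ratio of -0.55 that lay between -0.79 and -0.45 under the alternatives run. The lowest value was called lower and left out the cells labelled LSC or Conj, a comparison chosen after seeing the data. It was below the log2 ratios of -0.50 in Wing and -0.72 in Squam cells, and the part of cell makeup in it was not tested. The share of thinned cells with a Cldn3 UMI was 39.6% (37.2 to 42.1) and 27.4% (25.0 to 30.0) in Squam cells and 31.4% (29.7 to 33.2) and 23.5% (21.6 to 25.5) in Wing cells, against 66.2% and 55.4%, and 61.6% and 53.5%, before thinning. No Cldn3 UMI was found in the Immune cells, where the exact upper limit was 38.4 CPM in the control library. Calls in Squam cells ran mostly downward over all 10313 genes measured there, with 185 higher and 799 lower, or 264 and 600 with median-of-ratios scaling, and Cldn3 was called lower under both. The 7 superficial markers beside Cldn23 summed to 43543 and 53518 CPM in Squam cells, and 6 of them were higher in the diabetic library. Psca gave most of the sum, at 28930 and 40529 CPM, while Slurp1 went the other way at 9515 and 7353 CPM. The ratio was 1.02 for Krt78, 1.07 for Upk1b and Muc20, 1.13 for Muc4 and 1.44 for Ndrg1. The part of the superficial markers in the lower Cldn3 was not tested.

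Cldn4 differed less between the libraries than its neighbour in Wing and Squam cells. It stood at 149 and 137 CPM in Wing cells, 152 and 131 CPM in Squam cells and 238 and 272 CPM in Conj cells. In the lower layers it was at 10.6 and 11.4 CPM in Basal, 5.57 and 7.72 CPM in TAC1 and 25.0 and 26.1 CPM in TAC2 cells. None of the 7 labels gave a call, and the ratio lay between 0.858 in Squam and 1.39 in TAC1 cells. Without likely doublets TAC2 cells kept 87 and 176 Cldn4 UMIs in place of 322 and 461. The log2 ratio there rose from 0.06 to 0.55, with no call. In Squam cells the interval of the ratio was 0.824 to 0.894 for Cldn4 and 0.580 to 0.639 for Cldn3, and these do not overlap.

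TAC2 cells stood apart from TAC1 cells in Cldn3, at 18.6 CPM against 1.79 CPM in the control library. Conjunctival keratins summed to 279.5 and 312 CPM in TAC2 and 39.6 and 29.7 CPM in TAC1 cells. Without likely doublets, Cldn3 in TAC2 cells was at 9.25 and 10.8 CPM (85 and 137 UMIs) in place of 18.6 and 17.2 CPM (239 and 305 UMIs), and its log2 ratio turned from -0.11 to 0.22, with no call either way. The origin of these UMIs was not tested.

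Cldn7, on chromosome 11 at 69964779 to 69967885, encodes a claudin that also lies along the sides of epithelial cells outside the tight junction. It had the most UMIs of the 9 members in each of the 7 labels, at 233 and 247 CPM in Basal, 190 and 208 in TAC1 and 289 and 296 in TAC2 cells. Its level was 836 and 741 CPM in Wing, 871 and 700 CPM in Squam, 1048 and 990 CPM in Conj and 232 and 216 CPM in LSC cells. It was called in none of them. The largest difference was the 1.24-fold lower level in Squam cells (1.22 to 1.26), and the ratio was above 1 in Basal, TAC1 and TAC2 cells, at 1.06, 1.09 and 1.02. With median-of-ratios scaling the log2 ratio in TAC2 cells passed below 0.

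Cldn23, a gene of 1 exon on chromosome 8 at 35824712 to 35826559, was the member with the steepest rise towards the surface. Squam cells had 445 and 423 CPM, Conj cells 144 and 142 CPM and Wing cells 37.9 and 28.5 CPM. Control Squam cells thus held 176-fold the level of control Basal cells. In the diabetic library the fold was 954, over a Basal level from only 15 UMIs. Squam cells gave 78.2% and 80.0% of all Cldn23 UMIs. In its main site the gene hardly differed between the libraries: the ratio in Squam cells was 0.951 (0.930 to 0.973), and after thinning 74.8% and 75.2% of Squam cells had a UMI. Cldn23 is itself a marker by which superficial cells are told from others, so its height in Squam cells is no finding.

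The 3 lower calls of Cldn23 were made where it was scarce. Basal cells had 2.53 CPM (2.01 to 3.15) and 0.444 CPM (0.249 to 0.732) from 80 and 15 UMIs, 5.70-fold lower in the diabetic library (3.26 to 10.7). TAC1 cells had 1.99 and 0.693 CPM from 41 and 14 UMIs, 2.86-fold lower (1.53 to 5.69), and TAC2 cells 6.68 and 3.62 CPM from 86 and 64 UMIs, 1.84-fold lower (1.32 to 2.59). A Cldn23 UMI was seen in 3.07% of control and 0.588% of diabetic Basal cells before thinning, and in 1.23% and 0.216% after it. The call in TAC2 cells was lost, with log2 ratios of 0.02 and 0.08, on thinned cells and when every cell weighed the same. Without likely doublets TAC2 cells kept 14 and 18 Cldn23 UMIs, at 1.52 and 1.42 CPM, a log2 ratio of -0.10 that gave no call. TAC1 cells then kept 36 and 9 UMIs with a log2 ratio of -1.89, and that call was lost to the minimum of 50 UMIs, not to a smaller ratio.

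Some but not all other superficial markers were lower in diabetic Basal cells as well, as the bars for Basal cells show. Psca stood at 80.0 and 38.5 CPM, Muc4 at 10.2 and 4.74 CPM and Muc20 at 1.20 and 0.385 CPM from 38 and 13 UMIs. Krt78 was at 0.981 and 0.651 CPM from 31 and 22 UMIs. The 7 superficial markers beside Cldn23 summed to 7460 and 6807 CPM, Slurp1 giving most of the sum at 7076 and 6469 CPM. Of the 7, 5 were lower and 2 higher in the diabetic library, Ndrg1 at 4.27 and 5.15 CPM and Upk1b at 287 and 289 CPM. Relative to Squam cells of the same library, Basal cells held 0.569% and 0.105% of the Cldn23 level. The same shares were 0.276% and 0.0951% for Psca, 0.438% and 0.180% for Muc4 and 0.346% and 0.103% for Muc20. They were 0.455% and 0.296% for Krt78, 2.93% and 2.45% for Ndrg1, 13.9% and 13.1% for Upk1b and 74.4% and 88.0% for Slurp1. The part of superficial cells or their RNA in the low Cldn23 counts was not tested.

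**Figure D4:**
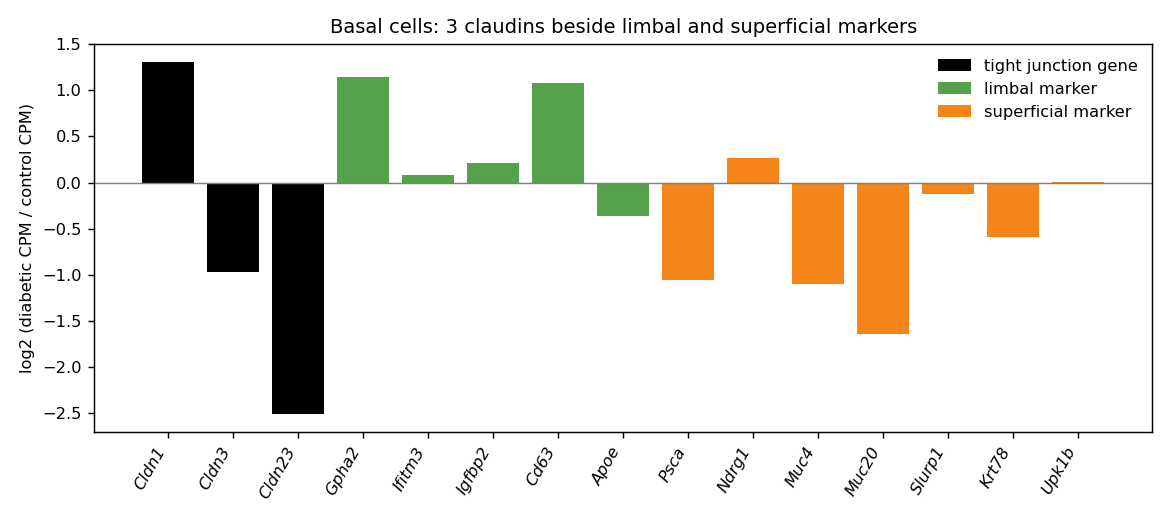
Log2 ratio of diabetic to control CPM (vertical axis) in Basal cells for Cldn1, Cldn3 and Cldn23 (black), the 5 limbal markers (green) and the 7 superficial markers beside Cldn23 (orange); the bars carry no error. Cldn1 lies on the side of Gpha2 and Cd63, and Cldn3 and Cldn23 on the side of Psca, Muc4, Muc20 and Krt78. Of these markers, Cd63 rests on 24 and 54 UMIs, Muc20 on 38 and 13 and Krt78 on 31 and 22. The limbal marker Apoe lies below 0 and the superficial marker Ndrg1 above 0, while Ifitm3, Igfbp2, Slurp1 and Upk1b lie nearer to 0.

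The makeup of the claudin pool, the UMIs of the 5 claudins together, set the labels apart more than the libraries. Cldn7 supplied 92.7% and 92.2% of it in Basal cells, 74.5% and 75.5% in Wing cells and 60.3% and 58.2% in Conj cells. In Squam cells Cldn7 gave 54.3% and 52.2%, and Cldn23 took 27.8% (27.4 to 28.1) and 31.6% (31.1 to 32.0). LSC cells had the most even pool, with Cldn7 at 49.95% and 50.8%, Cldn4 at 19.0% and 18.8%, Cldn3 at 17.1% and 15.02% and Cldn1 at 10.4% and 12.8%. The diabetic LSC pool shifted without likely doublets, to 45.8% Cldn7 and 16.6% Cldn1, and on thinned cells, to 45.3% and 17.5%. Conjunctival keratins summed to 1375 and 1614 CPM in LSC cells, beside 44.4 and 25.5 CPM in Basal cells. The part of other cells in the LSC pool was not tested. Cldn1 was a small part of the pool elsewhere, 1.26% and 2.93% in Basal cells and 0.197% and 0.526% in Squam cells. Cldn3 gave 8.19% (7.98 to 8.41) and 5.96% (5.73 to 6.19) of the Squam pool, and its intervals in the 2 libraries did not overlap.

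**Figure D5:**
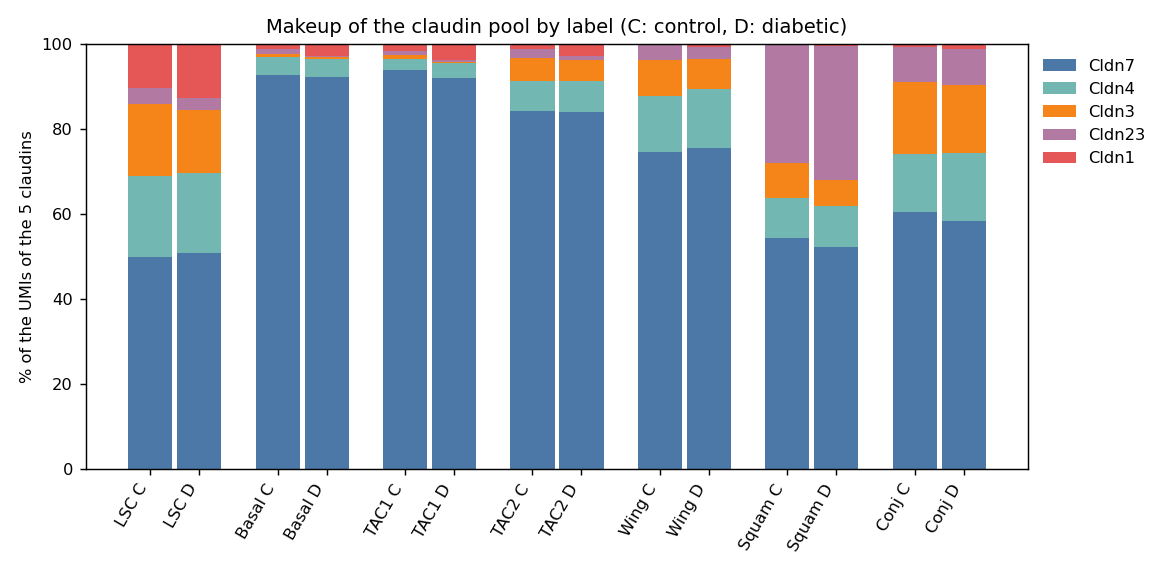
Share of each claudin in the UMIs of the 5 claudins (percent of the pool, vertical axis) in each label, with the control (C) and diabetic (D) library side by side. Cldn7 fills 92.0% to 93.8% of the pool in Basal and TAC1 cells, Cldn23 is largest in Squam cells at 27.8% and 31.6%, and Cldn1 is largest in LSC cells at 10.4% and 12.8%.

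The summed level of the 5 claudins was 1603 and 1342 CPM in Squam, 1123 and 982 CPM in Wing, 1736 and 1699 CPM in Conj and 251 and 268 CPM in Basal cells. Of the 5, a thinned Squam cell held a UMI of 2.46 and 2.30 on average, a Conj cell of 2.91 and 2.92, a Wing cell of 1.88 and 1.73 and a Basal cell of 0.730 and 0.768. Cells with UMIs of at least 4 of the 5 claudins made up 16.1% and 10.6% of Squam cells and 23.9% and 25.6% of Conj cells. None of the 5 was seen in 33.6% and 30.7% of Basal cells and in 0.584% and 0.765% of Squam cells at this depth.

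Occludin, on chromosome 13 at 100496507 to 100552718, is a membrane protein that joins the claudin strands and takes part in their regulation. Ocln was the scarcest member but Cldn1 over all cells, at 22.9 and 19.2 CPM. Squam cells had 41.1 and 43.0 CPM and Conj cells 37.1 and 42.4 CPM, 2 labels whose levels overlapped, followed by Wing cells at 26.9 and 21.5 CPM. The lower layers had 14.2 and 16.1 CPM in LSC, 7.37 and 6.05 in TAC2, 4.87 and 3.70 in Basal and 3.87 and 2.77 CPM in TAC1 cells. No label gave a call. The ratio of diabetic to control level was 0.799 in Wing cells (0.743 to 0.859), 0.760 in Basal cells (0.595 to 0.968) and 1.05 in Squam cells (0.971 to 1.13).

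JAM-A, encoded by F11r on chromosome 1 at 171437535 to 171464603, is an immunoglobulin-like adhesion protein that is also found on leukocytes and platelets. F11r had the flattest profile of the 9 genes across the labels. Its levels were 301 and 277 CPM in Squam, 202 and 200 CPM in Conj and 181 and 160 CPM in Wing cells. The lower layers held 140.0 and 118 CPM in LSC, 108 and 112 in Basal, 112 and 106 in TAC2 and 98.9 and 96.3 CPM in TAC1 cells, so that control Squam cells had 2.78-fold the level of Basal cells. F11r was called in no label, with ratios from 0.846 in LSC to 1.03 in Basal cells. The Immune cells gave 12 and 5 F11r UMIs, 125 and 159 CPM, more than any other member gave there.

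The scaffold ZO-1, encoded by Tjp1 on chromosome 7 at 65296165 to 65527781, links claudins, occludin and JAM-A to actin and is found at adherens junctions too. Squam cells had 388 and 407 CPM of it, far above the other labels. Conj cells followed at 128 (122 to 135) and 163 CPM (155 to 170), a ratio of 1.27 (1.18 to 1.36), the largest for Tjp1 in any label and under the call. Wing cells had 89.2 and 93.9 CPM, and LSC, TAC2, Basal and TAC1 cells between 40.1 and 55.4 CPM. After thinning, 39.8% (35.3 to 44.5) of control and 52.3% (47.5 to 57.1) of diabetic Conj cells had a Tjp1 UMI, and 79.9% and 78.4% of Squam cells. Elsewhere the ratio of Tjp1 lay between 0.959 in TAC2 and 1.26 in LSC cells.

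ZO-3, encoded by Tjp3 on chromosome 10 at 81273207 to 81291581, is the ZO protein limited mostly to epithelia. Its levels were 205 and 208 CPM in Squam, 138 and 127 CPM in Conj and 128 and 116 CPM in Wing cells, the last 2 labels overlapping. LSC cells had 39.9 and 29.8 CPM, TAC2 cells 30.7 and 31.3, Basal cells 27.7 and 26.2 and TAC1 cells 17.7 and 18.2 CPM. Tjp3 was called in no label, and its ratio in Squam cells was 1.01 (0.978 to 1.05). The lowest ratio was 0.745 (0.565 to 0.986) in LSC cells, from 87 and 137 UMIs, which was called lower once likely doublets were left out. The end of Tjp3 overlaps Apba3 on the opposite strand (6.46 and 7.25 CPM) and that of Cldn3 overlaps the antisense gene Wbscr25 (0.295 and 0.286 CPM), and whether the counting used strand is not given in the sources used here.

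Taking the 9 members as a list, their counts and medians differed between labels. The members' median log2 ratio was -0.17 in Wing, -0.07 in Squam, -0.02 in Conj, -0.14 in LSC, -0.06 in TAC2, 0.04 in TAC1 and 0.05 in Basal cells. Over all measured genes the same medians were 0.04, -0.08, 0.02, 0.01, 0.04, 0.01 and 0.01. Wing cells, where 7 of 9 members had a ratio below 1, were the label with the lowest median of the members.

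The other tight junction genes were read from a list of 84 symbols, of which 69 were in the matrix and 59 measured over all cells. Of the 59, 4 were called higher and 2 lower, beside 5.98% and 2.8% of all genes measured, and their median log2 ratio was 0.04 beside 0.07. The higher ones were the claudins Cldn10 (0.285 and 0.789 CPM) and Cldn12 (1.97 and 2.96 CPM), the multi-PDZ scaffold Mpdz (3.43 and 5.26 CPM) and Arhgef2 (2.95 and 4.43 CPM). The lower ones were Cldn17 (7.95 and 4.81 CPM), an anion-channel claudin, and Bves (4.24 and 2.54 CPM), a membrane protein of junctions. All 6 were scarcer than any member but Cldn1 over all cells.

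By label, the other tight junction genes gave 0 calls of 58 measured in Basal cells, and Bves alone, lower, of 56 in TAC1 cells. Of 58 measured in Wing cells, Mpdz, Snai2 and Arhgef2 were called higher and Bves lower. Of 54 measured in Squam cells, Cldn12 (1.18 and 2.94 CPM) and Wnk4, a kinase that acts on claudin permeability, were called higher and Cldn17 lower, and Marveld1 (1.13 and 0.621 CPM) and Cebpa (0.897 and 0.523 CPM) had the next lowest ratios without a call. In Conj cells Ovol1 (38.1 and 60.05 CPM), an epithelial repressor, and the receptor Epha2 (35.0 and 55.0 CPM) were called higher, of 50 measured. In TAC2 cells Arhgef2 was called higher and Bves lower. LSC cells, with none of the 9 members called, had Cldn10 (12.4 and 22.8 CPM) and Snai2 called higher and Cldn8 (23.0 and 13.2 CPM) and Cgnl1 lower, of 52 measured. The shares of all measured genes called higher and lower were 2.63% and 2.38% in Basal, 1.7% and 1.52% in TAC1, 2.21% and 1.35% in TAC2 and 3.93% and 2.59% in Wing cells. They were 1.79% and 7.75% in Squam, 2.52% and 1.95% in Conj and 2.63% and 2.61% in LSC cells.

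The genes whose levels over the 14 sums of label and library were most like each member's, among 6675 genes of at least 20 CPM in 1 or more of them, were found by Pearson correlation of log2 of CPM plus 1. They are a description, since the sums share libraries, depth and the labels made from these genes. Cldn1 was nearest to Fmo2 (r = 0.956), Fbxo42 and Smad1, and Cldn23 to Mab21l4 (r = 0.995), Kifc3 and Slc6a14. Cldn3 was nearest to Oit1 (r = 0.987), Pdlim2 and Kctd12, Cldn4 to Tgm5 (r = 0.991), Mfsd6 and Ceacam1, and Cldn7 to Cst6 (r = 0.985), Ostf1 and Cdkn2b. Ocln was nearest to the actin-capping gene Eps8 (r = 0.994), Ttc9 and Mall, and Tjp1 to Ehd1 (r = 0.993), the adherens junction gene Ctnna1 and Ctss. Tjp3 was nearest to Mal (r = 0.992), Mpzl3 and S100a14, and F11r to Zdhhc9 (r = 0.994), Trim34a and Tdrd7. Among the members themselves Cldn1 was the one unlike the rest, with r from -0.15 with Cldn7 to 0.36 with Cldn3, while every other pair lay at 0.68 or above.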

How the data were processed

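Single-cell 3′ UMI counts of 2 libraries were used as the authors deposited them: whole-number counts per gene and cell, not normalized, with a cell table of group and label. Cell Ranger 5.0.0, Seurat 4 and the build mm10 are named, without their roles, per the submitters' processing notes. How the authors filtered cells was not given in these sources, and the lowest total of a cell was 520 UMIs. Counts were summed over cells of a library and label and given as CPM with exact 95% Poisson intervals; ratios have exact conditional binomial intervals and shares of cells Clopper-Pearson intervals. Calls needed a CPM ratio of 1.5, 50 UMIs and separate intervals. No test was possible with 1 library per group. The calling code was tested on simulated data.

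Doublets were scored with Scrublet in scanpy 1.11.5; its automatic threshold marked 0 cells, so an alternative left out the top 8% of each library (791 control and 683 diabetic cells). Cells over 10% mitochondrial UMIs numbered 62. Thinning drew 5000 UMIs per cell, or 3000 as an alternative. Gene positions came from GENCODE M21 on GRCm38 and upstream sequences from RefSeq. The named genes are all 9 members, the other tight junction genes called in all cells or in a label or with up to 4 of the largest ratios per direction in Wing or Squam cells, and the 3 nearest in pattern to each member. The members and the lists were chosen with earlier results of these data known. Sums and intervals were computed with pandas 2.3.3, scipy 1.17.1 and numpy 2.4.6 in Python 3.11.15, and plots drawn with matplotlib 3.10.9.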

Additional observations from a re-analysis of the deposited data

How the results depend on the processing

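Cldn1 was called higher over all cells under each alternative run there, its log2 ratio lying between 0.99, with the same label weights in both libraries, and 1.21. The pairs of a member and a label called higher numbered 4 to 7. The count of members lower over all cells went from 0 to 1, Cldn3 each time, with median-of-ratios scaling, with the lower fold threshold tried and, chosen after seeing the data, without cells labelled LSC or Conj. The 5 pairs called lower became 8 with that lower threshold, 2 with a fold of 2 (Cldn23 in Basal and TAC1 cells), 1 with a minimum of 200 UMIs and 1 on cells thinned to 5000 UMIs (Cldn3 in Squam cells both times). On thinned cells Cldn23 had 29 and 5 UMIs in Basal cells (log2 ratio -2.51) and 12 and 1 in TAC1 cells (-3.30), and Cldn3 29 and 9 in Basal cells (-1.66), so these calls were lost to the minimum of 50 UMIs. Without likely doublets there were 4, of which Tjp3 in LSC cells was not among the 5. The log2 ratio of Cldn23 in TAC2 cells reversed to 0.0248 on thinned cells and to 0.0797 with equal weight for every cell; the cause was not tested. With the same label weights all 9 ratios over all cells moved by more than their counting interval, and Tjp1 changed sign to 0.09. Removing cells over 10% mitochondrial UMIs moved 0 of 72 ratios beyond their intervals. Of 70 shares of the claudin pool by label, 36 left their counting intervals on thinned cells and 17 without likely doublets. Counts of 14 to 86 UMIs limit the lower calls in Basal, TAC1 and TAC2 cells. No paired analysis was possible because each group has 1 library.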
